A study of Mus musculus with 25 samples.

Results

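The interaction of radiation with SEW-2871 asks, gene by gene, whether the lung responded to radiation differently when the mice also received SEW-2871. It was computed from group means of log2(signal + 16) as (radiation+SEW minus SEW) minus (radiation minus control). A positive value means that the radiation response was higher with the compound. The 4 groups that enter it hold 13 of the 25 arrays of the series, which also covers 2 other compounds, FTY720 and fTyS, each alone and with radiation. All mice were wildtype C57BL/6J females, 14 to 17 weeks old and weighing 20 to 25 g. Control mice received PBS (n = 4). The SEW group received SEW-2871 at 0.1 mg/kg by intraperitoneal injection 2 times a week (n = 3). The radiation group received a single dose of 25 Gy to the thorax (n = 3), and the radiation+SEW group received both (n = 3). The time from irradiation to collection of the lung is not given in the labels. Each array is labelled as the lung of 1 animal, so p-values measure the spread between these animals.

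Sphingosine 1-phosphate (S1P) is a lipid signal made by sphingosine kinases and read by G protein-coupled receptors. Its receptor S1pr1 holds endothelial junctions together and guides lymphocytes out of lymphoid organs. SEW-2871 is a selective agonist of S1pr1 that is not built like sphingosine. Thoracic radiation damages the lung endothelium and epithelium and is followed by inflammation and, later, by fibrosis. An interaction can come from any of the 4 groups: the same value arises when the compound alone, radiation alone, both together or the control stands apart. For each gene the carrier was therefore taken as the group whose mean lay farthest from the mean of the other 3, and it was called a single carrier where the range of the other 3 means was at most 50% of that distance. Below, wordings such as "elsewhere" or "all other arrays" cover only the 13 arrays of these 4 groups, unless another group is named.

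The tissue label matched its markers, since 12 alveolar type 2 genes, which define the surfactant-making epithelium, averaged 12.38 to 12.64 in the 13 arrays. Some arrays stood apart. A list of 27 targets of p53, the DNA-damage factor, averaged 9.83 in control replicate 4, against 9.23 to 9.33 in the other 3 control arrays, 9.26 to 9.43 in the SEW arrays and 9.71 to 9.89 in the 6 irradiated arrays, so for this list the array lay with the irradiated ones, against its label. Counts of list members that changed without it are given beside each list. Skeletal muscle genes (17) averaged 11.02 in control replicate 2, 11.43 and 11.38 in SEW replicates 1 and 3, and 11.10 in radiation+SEW replicate 1, but 6.50 to 8.76 in the other 9 arrays. Adipocyte genes (11) averaged 8.15 to 10.28 in control, 9.52 to 11.92 with SEW-2871, 8.49 to 9.64 after radiation and 8.73 to 11.03 with both. None of these 28 genes was called in the interaction (all genes 13.9%). All 11 adipocyte genes nevertheless lay below 0 (median -1.04), as did 14 of the 17 muscle genes (median -0.36). Their spread within groups was wide, so the lack of calls does not show equal levels. In bulk tissue, fewer cells of a type and less RNA per cell cannot be told apart.

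Of 12937 genes tested, 1797 (13.9%) had an interaction at an adjusted p of at most 0.05 (limma, Benjamini-Hochberg), 1356 above 0 (10.5%) and 441 below 0 (3.41%). The effect exceeded 2-fold for 133 genes (1.03%), 73 above and 60 below 0. Among the 1797, 1595 (88.8%) had radiation responses of opposite sign without and with SEW-2871, against 54.2% of all genes tested. Choosing genes by the difference between these 2 responses favours opposite signs, so the 2 shares are not directly comparable. The response was called only with the compound for 1190 of the 1797, only without it for 210, and in neither setting for 332. In 64 genes both responses were called and opposite: 59 fell after radiation alone and rose after radiation under SEW-2871, and 5 did the reverse. Those 5, chosen after their values were seen, were Glipr1, Gps2, Nr4a3, Tnfrsf12a and Ube2d3. Scaling set the balance of directions: 75.5% of calls were above 0 as deposited, 59.8% after quantile normalization (1596 calls) and 45.4% after centring each array on its median (1466 calls). Without control replicate 4 there were 1770 calls (1341 above and 429 below 0), without radiation+SEW replicate 3 there were 888, without SEW replicate 1 there were 1126, and without radiation replicate 1 there were 1140. With the muscle and adipocyte means as covariates there were 2668.

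**Figure D1:**
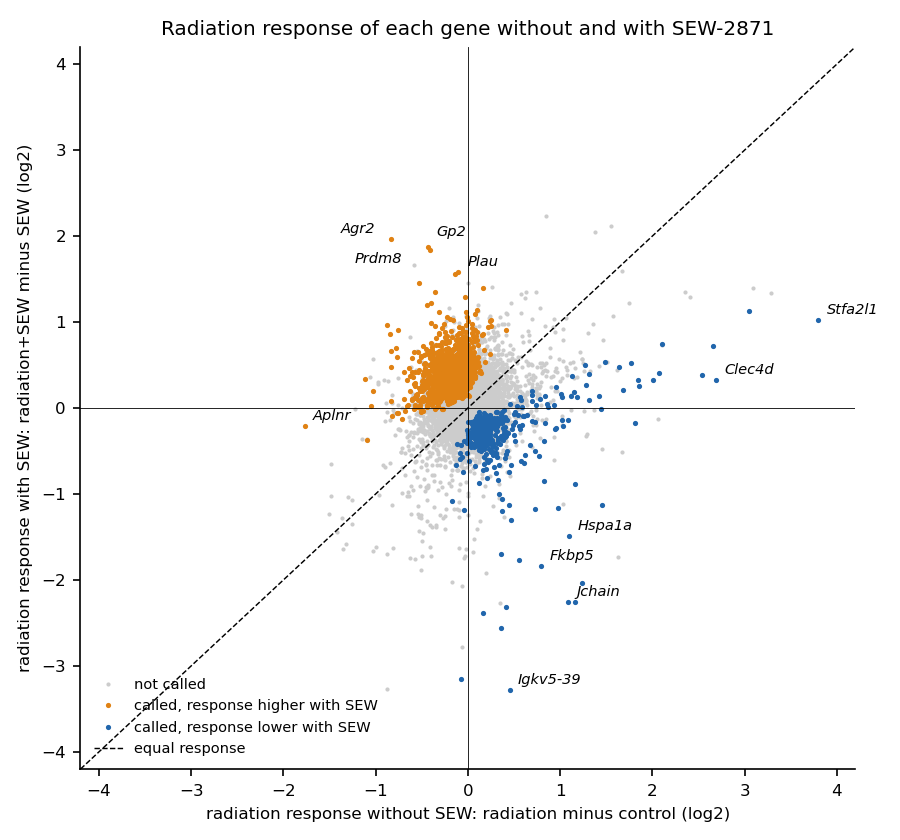
Radiation response of each of the 12937 genes without SEW-2871 (horizontal axis, radiation minus control, log2) against the response with it (vertical axis, radiation+SEW minus SEW, log2). Orange points are the 1356 genes called above 0, blue points the 441 called below 0, grey points the rest, and the dashed line marks equal responses. Most orange points lie left of 0 and above it, while the neutrophil genes Stfa2l1 and Clec4d lie far right and the immunoglobulin gene Igkv5-39 far below 0.

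On the deposited scaling the SEW group was most often the one that stood apart. Neither the carriers nor the contrasts between 2 groups given below were recomputed after quantile normalization or median centring. Among genes called above 0 it lay farthest and low in 765 of 1356 (56.4%), and radiation+SEW lay farthest and high in 345 (25.4%). Among genes called below 0, SEW lay farthest and high in 210 of 441 (47.6%), radiation high in 96 (21.8%) and radiation+SEW low in 77 (17.5%). Over all genes tested, the positions open to a positive interaction held 22.4% (SEW low), 16.2% (radiation+SEW high), 9.72% (control high) and 9.29% (radiation low). Those open to a negative one held 16.6% (SEW high), 9.45% (control low), 8.26% (radiation+SEW low) and 8.12% (radiation high). SEW thus led over all genes too. A call in 1 direction leaves only these 4 positions, so its shares are not directly comparable with those of all genes. By the stricter rule 1280 of the 1797 (71.2%) had no single carrier, against 66.6% of all genes. A single carrier was SEW low in 283 genes (15.7%, all genes 8.71%) and SEW high in 63 (3.51%, all genes 5.96%). It was radiation+SEW high in 61 (3.39%, all genes 4.86%) and radiation high in 55 (3.06%, all genes 2.82%). The other 55 had control high (20), radiation low (17), radiation+SEW low (16) or control low (2), positions that each held 2.67% to 3.01% of all genes. For 259 of the 283, the 3 SEW arrays lay below all 10 other arrays, against 562 of the 1127 genes with this carrier among all genes tested. SEW minus control was itself called in 1080 of the 1797 genes (60.1%), while radiation minus control was called in 275 (15.3%); both contrasts share arrays with the interaction. Over all genes, SEW minus control was called in 14.6% (3.77% higher, 10.8% lower), radiation minus control in 4.4% (2.29% higher, 2.11% lower), radiation+SEW minus SEW in 17.7% (13.8% higher, 3.92% lower) and radiation+SEW minus radiation in 2.48% (1.38% higher, 1.11% lower).

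**Figure D2:**
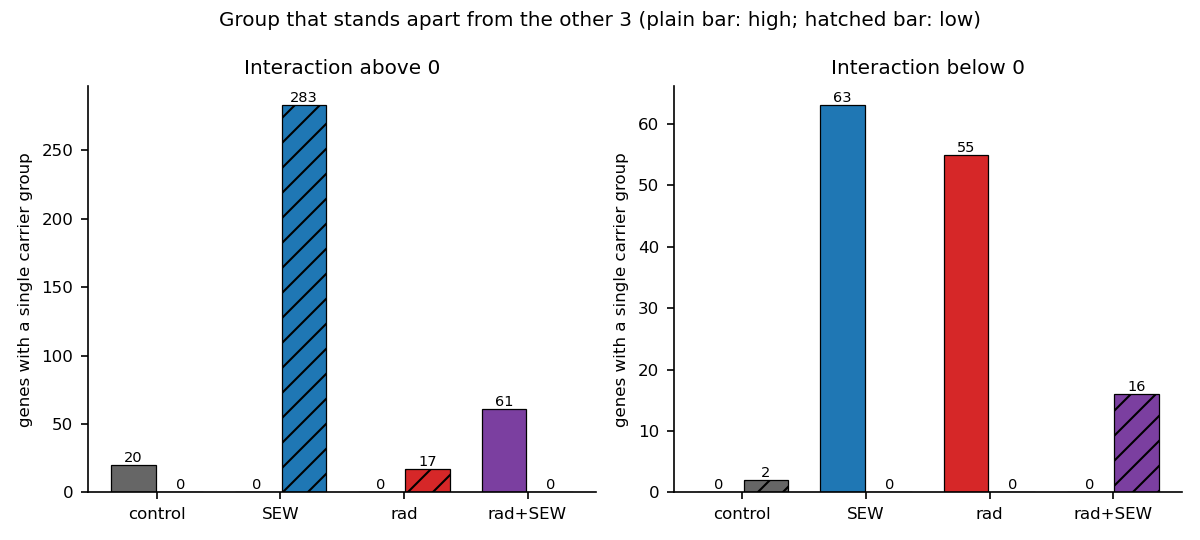
Number of genes with a single carrier by group on the deposited scaling, for genes called above 0 (left) and below 0 (right). Plain bars are carriers that were high and hatched bars carriers that were low. SEW low leads on the left with 283 genes, and SEW high (63) and radiation high (55) lead on the right; a positive interaction leaves no room for a carrier of the other direction, so the empty positions follow from the definition.

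Above 2-fold the order changed. Of the 133 genes, radiation high was the single carrier of 20 (15%, all genes 2.82%) and SEW high of 12 (9.02%, all genes 5.96%). SEW low was that of 10 (7.52%, all genes 8.71%) and radiation+SEW high of 7 (5.26%, all genes 4.86%). No single carrier was found for 82 (61.7%, all genes 66.6%). The 15 most negative genes held 9 immunoglobulin or J chain genes. SEW was farthest from the others in 11 of these 15 and the single carrier in 9, and radiation was the single carrier in 3. The 15 most positive genes were more mixed: SEW and radiation+SEW were each farthest in 6 and control in 3, and only 5 had a single carrier. All 30 genes kept their direction, and 22 their call, in each alternative that tested them; the filter at the 60th percentile tested 12 of the 30 and a pseudocount of 1 tested 29.

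Among the 4 groups, antibody genes were highest with SEW-2871 alone: 5 of 10 were called higher than in control (all genes 3.77%). The list was also high with the other compounds alone, averaging 10.46 to 10.74 with SEW-2871, 10.41 to 10.73 with fTyS and 10.07 to 10.53 with FTY720, against 9.26 to 9.54 in control. Jchain, which joins polymers of immunoglobulin M and A, measured 9.19, 9.68, 9.30 and 9.38 in control, 12.25, 12.37 and 12.55 with SEW-2871, 10.47, 10.88 and 10.06 after radiation, and 9.28, 11.36 and 9.76 with both. Its SEW arrays lay above the other 10, although fTyS alone (12.12 to 12.36) overlapped with them, whereas radiation+SEW replicate 2 lay above every radiation and control array and the other 2 close to control. The interaction was -3.34 ± 0.80 (SE; adjusted p = 0.011, limma), with SEW minus control at 3.0 (adjusted p = 0.0022), radiation minus control at 1.08 (adjusted p = 0.326) and radiation+SEW minus SEW at -2.26 (adjusted p = 0.0124).

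Ighm, the heavy chain of immunoglobulin M, read 9.87, 10.34, 10.49 and 10.49 in control, 12.64, 12.79 and 12.91 with SEW-2871, 9.59, 11.17 and 10.62 after radiation, and 9.89, 11.57 and 9.73 with both. Again only the SEW arrays stood clear of the rest. Its interaction was -2.54 ± 0.71 (adjusted p = 0.0226). Igkv5-39, a kappa light chain variable segment, had the largest negative value of all called genes, -3.73 ± 0.88 (adjusted p = 0.0103). It lay at 4.77 to 5.27 in control, 5.09 to 5.88 after radiation and 5.11 to 5.57 with both. All of these lay below the filter of 6.49 on the mean over arrays. The gene thus passed the filter only through other arrays where it was high. In the SEW arrays it read 9.79, 8.64 and 7.20, so all 3 were high but widely spread.

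Kappa segments Igkv6-14 (-3.08 ± 0.64) and Igkv8-30 (-2.92 ± 0.59) were carried by the SEW arrays alone, as were Igkv4-68 (-2.73) and the lambda segment Iglv1 (-3.42 ± 0.90). Igha, the heavy chain of immunoglobulin A, differed: it measured 9.28 to 10.20 in control, 11.43 to 11.86 with SEW-2871, 10.68 to 11.58 after radiation and 10.16 to 11.27 with both, so the control group lay farthest and no group carried it alone (interaction -2.58 ± 0.69, adjusted p = 0.0193). Igkv9-120 also had no single carrier (-3.27 ± 0.76). Immunoglobulin segments resemble each other closely, so signal may be shared between them and the single gene names are uncertain. For Iglv1, 2 other probe sets gave -0.35 and -0.75.

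Over the list of 10 plasma cell and immunoglobulin genes, 4 were called below 0 (all genes 3.41%) and 1 above (10.5%). The median was -0.82 against 0.05 over all genes. The gene called above 0 was Sdc1, the surface proteoglycan used as a plasma cell marker and also made by epithelium (0.32 ± 0.06, adjusted p = 0.00219). Mzb1, a chaperone of antibody-secreting cells, had SEW minus control at 1.18 (adjusted p = 0.0124) and an interaction of -1.02 that missed the threshold (adjusted p = 0.116). Among 15 B cell genes none was called in the interaction, and their mean was 8.0 to 8.45 with SEW-2871 and 7.89 to 8.53 in control. Without radiation+SEW replicate 3 only 1 of the 4 negative calls in the list was made; without control replicate 4 all 4 were.

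Genes of neutrophils were highest in the lungs that received radiation alone, with 9 of 13 called higher than in control. Stfa2l1, a stefin A-like protease inhibitor, read 6.20, 6.10, 6.08 and 7.23 in control, 5.85, 6.17 and 5.77 with SEW-2871, 11.53, 10.07 and 9.01 after radiation, and 6.84, 6.40 and 7.64 with both. Among the 4 groups the radiation arrays did not overlap with any other, and control replicate 4 was the highest control array. Every control array except replicate 4, all SEW arrays and the lowest radiation+SEW array lay below 6.49, the filter on the mean over arrays. These levels were thus low. The gene had an interaction of -2.78 ± 0.68 (adjusted p = 0.012): radiation raised it by 3.80 without the compound (adjusted p = 0.000181), while radiation+SEW minus SEW was 1.03 (adjusted p = 0.161).

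Clec4d, a C-type lectin receptor of myeloid cells, measured 7.55, 7.08, 7.18 and 8.10 in control, 7.46, 7.35 and 7.80 with SEW-2871, 10.86, 10.26 and 9.39 after radiation, and 7.81, 7.51 and 8.27 with both (interaction -2.36 ± 0.48, adjusted p = 0.00418). Wfdc17, a small secreted protein of myeloid cells, measured 8.19 to 9.22 in control, 8.80 to 9.53 with SEW-2871, 10.50 to 11.75 after radiation and 9.28 to 9.64 with both (-2.15 ± 0.43, adjusted p = 0.00386). In both genes radiation replicate 3 was the lowest of its group yet above every array of the other groups among the 4. Outside these, Clec4d read 9.48 in radiation+FTY replicate 3. The gelatinase gene Mmp9 (-1.68 ± 0.39) and the lectin receptor gene Clec4e (-1.93 ± 0.53) had the same single carrier.

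**Figure D3:**
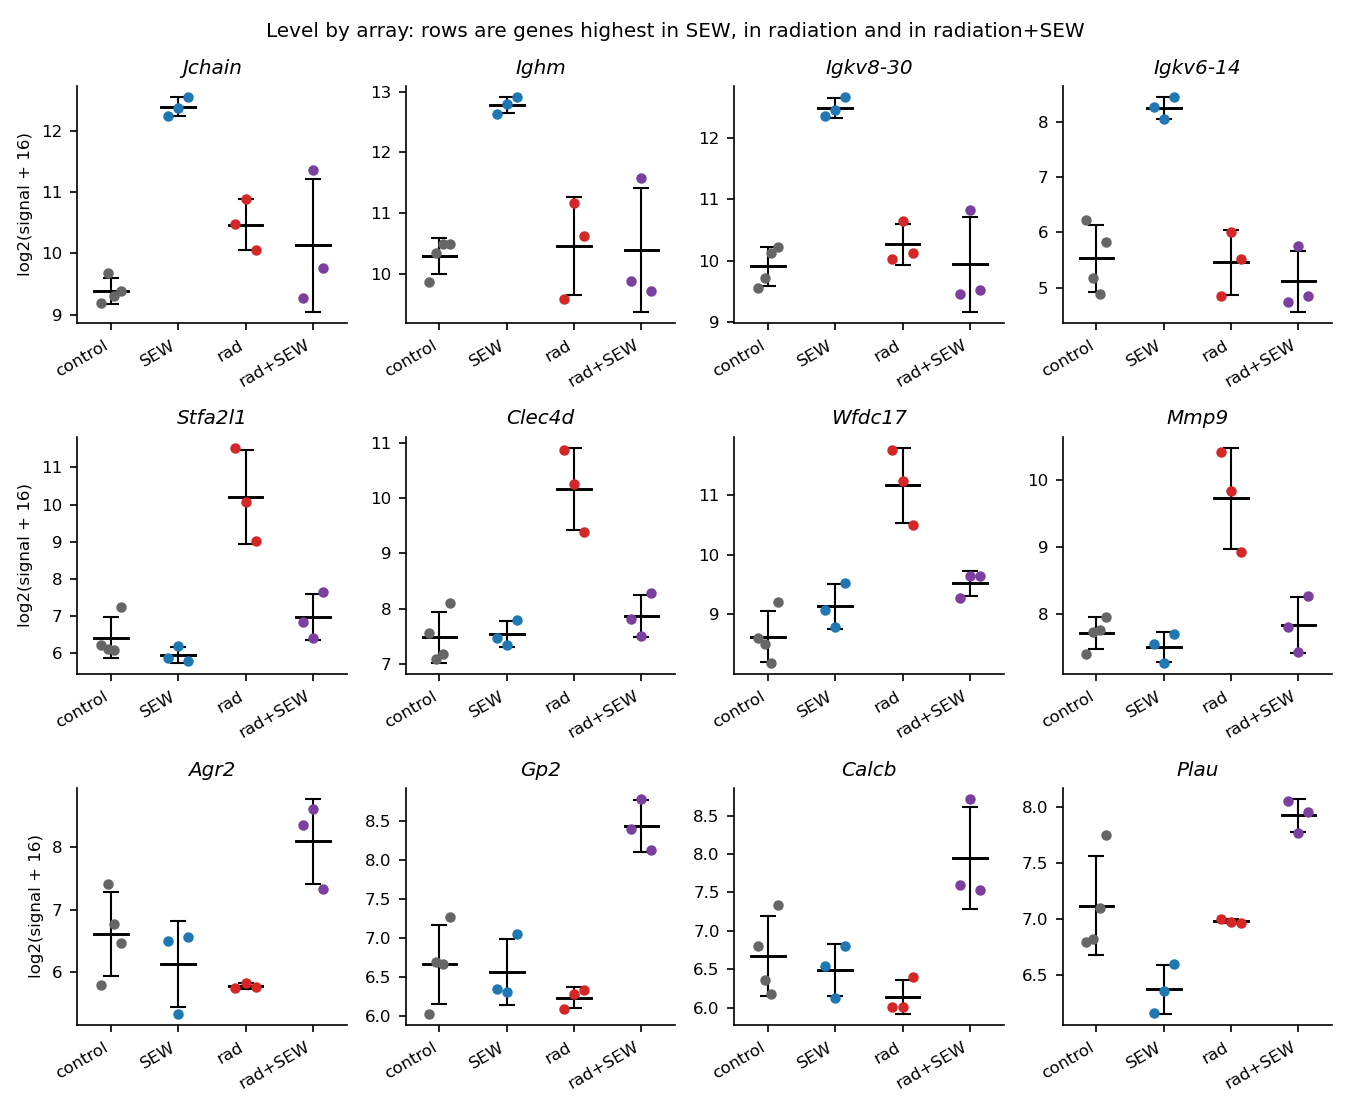
Level of 12 genes by array, as log2(signal + 16), in control (grey, n = 4), SEW (blue, n = 3), radiation (red, n = 3) and radiation+SEW (purple, n = 3). Points are arrays, the long bar is the group mean and the whiskers show 1 SD. The SEW arrays stand above the rest in the upper row, the radiation arrays in the middle row, and the radiation+SEW arrays are highest on average in the lower row.

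Of 13 neutrophil genes measured, 4 were called below 0 (all genes 3.41%; 5 without control replicate 4) and none above, and the median interaction was -1.70. Radiation raised 9 of the 13 without SEW-2871 (all genes 2.29%), against 1 of the 13 under it (13.8%), and radiation+SEW was lower than radiation for 9 (1.11%). The list averaged 7.68 to 8.43 in control, 7.44 to 7.92 with SEW-2871, 9.54 to 10.44 after radiation and 7.95 to 8.76 with both. The best known neutrophil genes had interactions of the same sign that missed the threshold: Csf3r, which encodes the receptor of a granulocyte growth factor, at -1.95 ± 0.68 (adjusted p = 0.0598), and the calprotectin genes S100a9 and S100a8 at -1.70 ± 0.75 and -1.12 ± 0.65 (adjusted p = 0.137 and 0.265). Csf3r read 11.12, 10.46 and 9.83 after radiation and 7.74, 6.24 and 7.93 with both, against 6.51 to 8.22 in control and 5.93, 6.21 and 5.75 with SEW-2871. S100a9 read 10.13, 8.76 and 11.35 with both, spanning the range from the SEW arrays to above the highest control array.

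Some myeloid surface and chemokine genes were also highest after radiation alone. Among 16 genes of monocytes and interstitial macrophages, Itgam, an integrin subunit, and Cd68, a lysosomal glycoprotein, were called below 0 (all genes 3.41%), and none above (10.5%). Itgam lay at 7.94 to 8.71 after radiation and at 6.78 to 7.60 in the other 10 arrays (-0.97 ± 0.29, adjusted p = 0.0294). Neither was called without radiation replicate 1, SEW replicate 1 or radiation+SEW replicate 3, while 4 genes of the list were called below 0 without control replicate 4 and with quantile normalization. Cd68 lost its call in 14 of 26 alternatives and Itgam in 7 of 25. In the list of 25 interleukin, chemokine and adhesion genes 4 were called below 0 (all genes 3.41%) and 1 above (10.5%). Those below were Il1rn, the interleukin 1 receptor antagonist (-1.24 ± 0.32), and the chemokines Ccl9 (-1.28 ± 0.36), Ccl6 (-0.90 ± 0.29) and Ccl2 (-0.41 ± 0.13). Il33, an alarmin of barrier tissue, was called above 0 (0.60 ± 0.18), with 11.60, 11.28 and 11.43 in radiation+SEW above all other arrays. Leaving out radiation replicate 1 or radiation+SEW replicate 3 left 1 negative and no positive call in this list.

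Of 15 genes that glucocorticoids induce, 5 were higher with SEW-2871 alone than in control (all genes 3.77%) and 3 were called below 0 in the interaction (3.41%). Fkbp5, a co-chaperone of the glucocorticoid receptor, read 9.75, 8.32, 7.75 and 8.35 in control, 10.56, 10.50 and 10.30 with SEW-2871, 10.63, 8.78 and 8.60 after radiation, and 8.65, 8.48 and 8.72 with both. Radiation replicate 1 reached the level of the SEW arrays and control replicate 1 came near it, while the 3 radiation+SEW arrays lay below all SEW arrays. The interaction was -2.63 ± 0.58 (adjusted p = 0.00702), and SEW minus control was 1.91 (adjusted p = 0.00466). Angptl4, an inhibitor of lipoprotein lipase (-2.07 ± 0.62), and Tsc22d3, known as GILZ (-0.84 ± 0.27), were also called, and 13 of the 15 genes lay below 0 (median -0.42). Map3k6, a stress kinase outside the list, followed the same order, at 9.70 to 10.03 with SEW-2871 and 7.88 to 8.37 with both (-2.31 ± 0.55, adjusted p = 0.0106). Only 1 of the 3 list calls was made without SEW replicate 1, without radiation replicate 1 or without radiation+SEW replicate 3.

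The inducible heat shock genes Hspa1a and Hspa1b encode almost the same chaperone of the Hsp70 family. Their upstream sequences are shown because both hold a heat shock motif. Each sequence is the 150 bases before the gene's start on the minus strand of GRCm38.p6 (RefSeq), at chr17:34972157-34972306 for Hspa1a and chr17:34959239-34959388 for Hspa1b, and capitals mark GAANNTTC, a core of the heat shock element that is its own reverse complement.
Hspa1a: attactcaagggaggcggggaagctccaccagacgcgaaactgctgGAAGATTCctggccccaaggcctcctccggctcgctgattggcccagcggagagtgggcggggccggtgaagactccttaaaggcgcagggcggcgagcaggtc
Hspa1b: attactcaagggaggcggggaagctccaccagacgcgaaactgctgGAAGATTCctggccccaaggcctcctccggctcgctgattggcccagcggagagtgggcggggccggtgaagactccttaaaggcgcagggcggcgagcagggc
The 2 windows matched at 149 of 150 bases (99.3%), and in each the motif begins 104 bases before the start. It occurs in 7.86% of all 32851 promoter windows of 300 bases and in neither of the 2 windows of Dnajb1, a co-chaperone of Hsp70. It is in both windows of the heat shock gene Hsph1 and in that of Jun, but not in those of Jund and Nr4a3. A match describes the sequence only.

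Hspa1a read 10.34, 9.40, 8.36 and 8.60 in control, 10.82, 10.93 and 10.70 with SEW-2871, 8.73, 10.76 and 11.33 after radiation, and 9.6, 9.53 and 8.86 with both. The SEW arrays were tight and high, while control and radiation were each widely spread and overlapped. Its interaction was -2.58 ± 0.67 (adjusted p = 0.0164) with no single carrier. Hspa1b, at 12.32, 12.39 and 12.31 with SEW-2871 and 11.45, 11.41 and 10.67 with both, had -2.13 ± 0.64 (adjusted p = 0.0319), and Dnajb1 had -1.10 ± 0.34 (adjusted p = 0.0361). Hspa1a and Hspa1b encode almost the same protein, so their signal may be shared and they are not taken as independent. Their transcript and probe sequences were not compared, and the upstream match does not bear on shared signal.

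In the list of 24 immediate early and heat shock genes, 5 were called below 0 (all genes 3.41%) and 1 above (10.5%), with a median of -0.09. Besides Hspa1a, Hspa1b and Dnajb1 these were Nr4a3, Jun and, above 0, Jund. Nr4a3, an orphan nuclear receptor induced by many stimuli, rose by 1.16 with radiation alone (adjusted p = 0.0218) and fell by 0.89 with radiation under SEW-2871 (adjusted p = 0.0462). It measured 7.37 to 8.98 in control, 9.62 to 9.78 with SEW-2871, 9.34 to 9.53 after radiation and 8.47 to 9.16 with both. Jun, a subunit of the AP-1 transcription factor, was lowest with both, at 11.64, 11.42 and 11.40 against 11.78 to 12.00 elsewhere, and radiation+SEW was its single carrier (-0.49 ± 0.12, adjusted p = 0.0112). A second probe set of Jun gave -0.19 ± 0.11. Jund, another AP-1 subunit, had 0.34 ± 0.09, and its call was lost with median centring and with probe sets averaged. Egr1, Junb and Nr4a1 fell with SEW-2871 alone, by 1.46, 0.81 and 1.03, and their interactions of 0.93, 0.47 and 0.97 were not called; these 3 were chosen after their values were seen. Leaving out radiation+SEW replicate 3 left 2 of the 5 negative calls, and leaving out control replicate 4 or SEW replicate 1 left 3; without control replicate 4, 2 were called above 0.

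**Figure D4:**
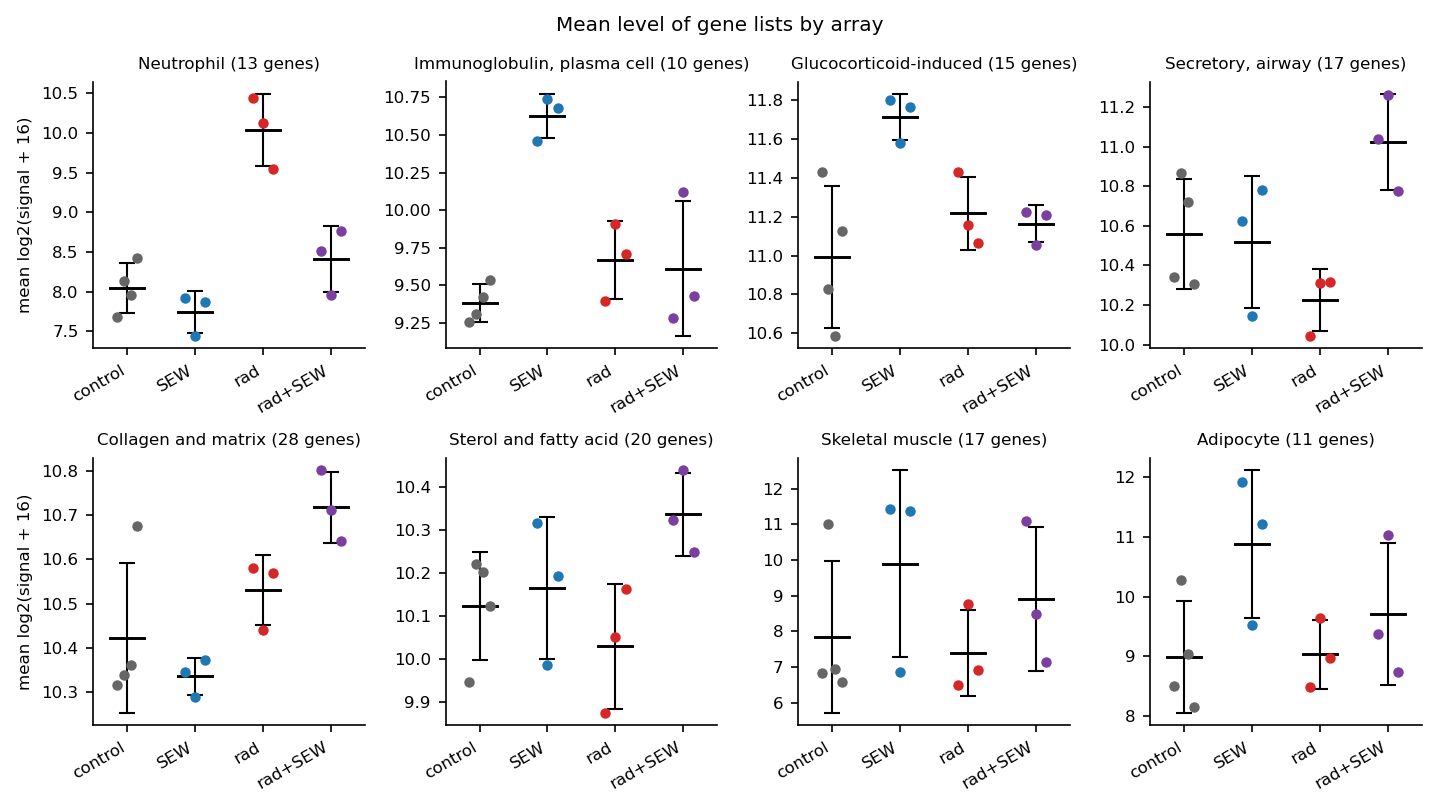
Mean log2(signal + 16) of 8 gene lists by array in the 4 groups; points are arrays, the long bar is the group mean and whiskers show 1 SD. Neutrophil genes are highest in the radiation arrays (9.54 to 10.44), immunoglobulin genes in the SEW arrays (10.46 to 10.74), and skeletal muscle and adipocyte genes vary widely within groups.

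Of 17 secretory and airway genes 5 were called above 0 (all genes 10.5%) and none below, and 3 were higher with radiation and SEW-2871 together than with radiation alone (1.38%). Agr2, a disulfide isomerase needed to make mucins, had the largest positive interaction of all called genes. It read 5.79, 7.41, 6.77 and 6.46 in control, 6.49, 5.33 and 6.56 with SEW-2871, 5.75, 5.83 and 5.76 after radiation, and 8.35, 8.60 and 7.32 with both. The radiation arrays lay below the filter of 6.49 on the mean over arrays, so these levels were low. Radiation+SEW replicate 3 lay below control replicate 2, so the groups overlapped. The interaction was 2.80 ± 0.82 (adjusted p = 0.0288), and radiation+SEW minus radiation was 2.32 (adjusted p = 0.0451).

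Gp2, a glycoprotein of secretory granules, read 6.02, 6.68, 6.66 and 7.27 in control, 6.34, 6.30 and 7.05 with SEW-2871, 6.08, 6.28 and 6.33 after radiation, and 8.40, 8.79 and 8.13 with both. All 3 radiation+SEW arrays lay above the other 10 (2.30 ± 0.63, adjusted p = 0.0209). Calcb, which encodes a calcitonin gene-related peptide, read 7.59, 8.72 and 7.53 with both and 6.01 to 7.34 elsewhere (1.99 ± 0.48, adjusted p = 0.011). Muc1, a membrane mucin, was also called (0.59 ± 0.13), but there radiation alone (10.92 to 11.07) and SEW-2871 alone (10.91 to 11.03) both lay below control (11.21 to 11.45), and the combination lay between (11.19 to 11.23).

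In the whole list of secretory and airway genes 15 lay above 0, and the median was 0.71. The fifth called gene was Scgb3a2, a secretoglobin, at 0.12 ± 0.04. Muc5b, the gel-forming airway mucin, had 1.03 ± 0.49 (adjusted p = 0.168), and the club cell secretoglobin Scgb1a1 had 0.07 ± 0.04 (adjusted p = 0.228). The list averaged 10.77 to 11.26 with both and 10.04 to 10.32 after radiation, with control and SEW between at 10.14 to 10.87. In the muscle and adipocyte covariate fit 11 of the 17 were called above 0, and without SEW replicate 1 or radiation replicate 1 there were 3; without control replicate 4 there were 5 above and 1 below 0. The call of Agr2 was lost in 7 of the leave-one-out fits, where its adjusted p reached 0.0767, and that of Gp2 in 2.

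Of 28 collagen and matrix genes 7 were called above 0 (all genes 10.5%) and 1 below (3.41%; median 0.38), and Plau and Col1a1 were lowest with SEW-2871 alone and highest on average with both. Plau, the urokinase plasminogen activator, read 6.80, 6.83, 7.10 and 7.76 in control, 6.16, 6.36 and 6.59 with SEW-2871, 7.0, 6.98 and 6.96 after radiation, and 8.06, 7.77 and 7.96 with both. The SEW arrays lay below every other array and the radiation+SEW arrays above, although control replicate 4 came close to the lowest of these. The interaction was 1.70 ± 0.30 (adjusted p = 0.00195). Col1a1, a chain of type I collagen, measured 9.46 to 9.99 in control, 8.74 to 9.35 with SEW-2871, 9.45 to 9.59 after radiation and 9.85 to 10.13 with both, and SEW lay farthest (1.14 ± 0.20, adjusted p = 0.00213). Col8a1, a short-chain collagen, had radiation+SEW high as its carrier (1.44 ± 0.26, adjusted p = 0.00224).

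The other matrix genes called above 0 were the crosslinking enzyme gene Loxl1 (0.70 ± 0.15), the membrane metalloproteinase gene Mmp14 (0.38 ± 0.08), Col3a1 (0.64 ± 0.19) and Col6a1 (0.49 ± 0.14). Thbs1, the matricellular protein thrombospondin 1, was called below 0 (-1.18 ± 0.34). Radiation raised 1 of the 28 genes without SEW-2871 and 12 under it (all genes 2.29% and 13.8%). Control replicate 4 was the highest control array for this list, at 10.68 against 10.32 to 10.36, and without it 7 genes were called above and 2 below 0. Fras1 (1.71 ± 0.27) and Frem1 (1.62 ± 0.23), which encode proteins of the epithelial basement membrane, were among the 15 most positive genes.

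Sterol synthesis genes were called above 0 as well. Of 20 genes of cholesterol and fatty acid synthesis 7 were called above 0 (all genes 10.5%) and none below (median 0.27). Dhcr7, the last enzyme of cholesterol synthesis, measured 7.39 to 8.06 in control, 7.39 to 7.68 with SEW-2871, 7.19 to 7.77 after radiation and 7.97 to 8.29 with both (1.09 ± 0.24, adjusted p = 0.00626). Cyp51, lanosterol demethylase, read 9.94, 9.91 and 10.07 with both, above the other 10 arrays at 9.03 to 9.76, and radiation+SEW was its single carrier (0.79 ± 0.17, adjusted p = 0.00626). Stard4, a sterol transfer protein, fell by 0.38 with radiation alone (adjusted p = 0.0475) and rose by 0.46 with radiation under SEW-2871 (adjusted p = 0.00987). The other 4 were Idi1, Fdft1, Srebf1 and Scd2, at 0.61, 0.71, 0.54 and 0.25. Without control replicate 4 there were 6 calls, median centring left 4, and leaving out radiation replicate 1 or radiation+SEW replicate 3 left 3.

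Several others of the 15 most positive genes were lowest in the SEW arrays, which lay farthest from the other groups in 6 of the 15. Prdm8, a transcriptional regulator of the PR domain family, read 6.98, 8.16, 8.43 and 7.96 in control, 6.12, 5.69 and 6.25 with SEW-2871, 7.33, 7.75 and 7.34 after radiation, and 7.89, 7.70 and 7.98 with both. The SEW arrays lay below all others, and the other 3 groups overlapped. Its interaction was 2.25 ± 0.36 (adjusted p = 0.00106), with SEW minus control at -1.87 (adjusted p = 0.000431). D430019H16Rik, the other gene of the 15 with SEW as single carrier, read 7.68, 8.01 and 7.86 with SEW-2871 and 8.45 to 9.37 elsewhere (1.71 ± 0.23, adjusted p = 0.000435).

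The gene of the meiotic cohesin subunit Rec8 (1.69 ± 0.33) and Tet1, an enzyme that oxidises 5-methylcytosine (1.67 ± 0.26), were also lowest in the SEW arrays, but had no single carrier. Of 3 other probe sets of Tet1, 1 gave the opposite sign (-0.07). Spag17, a protein of the ciliary axoneme, and the unannotated genes 1700001D01Rik and A330076H08Rik fell with radiation alone, fell with SEW-2871 alone and rose with radiation under SEW-2871. For Spag17 these changes were -0.83, -0.81 and 0.66 (interaction 1.49 ± 0.24, adjusted p = 0.00106). Arntl2, a clock transcription factor (1.65 ± 0.52, adjusted p = 0.0397), lost its call in 14 of 25 alternatives.

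Aplnr, the apelin receptor of endothelial cells, was lowest after radiation alone, at 8.77, 9.28 and 9.19. It read 11.05, 11.15, 11.47 and 9.73 in control, 9.68, 10.23 and 10.18 with SEW-2871, and 10.14, 9.99 and 9.33 with both. Control replicate 4 was the lowest control array and lay within the range of the SEW arrays. Radiation minus control was -1.77 (adjusted p = 0.00148), radiation+SEW minus SEW was -0.21 (adjusted p = 0.704), and the interaction was 1.56 ± 0.44 (adjusted p = 0.0249). Of 22 endothelial genes 3 were called above 0 (all genes 10.5%) and none below, the others being Ednrb, the endothelin B receptor (0.60 ± 0.09, adjusted p = 0.000971), and Kdr, the receptor of vascular endothelial growth factor (0.38 ± 0.12, adjusted p = 0.0371), while the median was -0.08. Of the 22 genes, 6 lay above 0 and 16 below. The call of Kdr was lost in 13 of 26 alternatives and that of Aplnr in 6. Without SEW replicate 1 or radiation replicate 1, 1 of the 3 list calls was made, and without control replicate 4, 2 were. Ednrb lay at 11.67 to 11.86 in control, 11.43 to 11.60 with SEW-2871, 11.33 to 11.55 after radiation and 11.78 to 11.81 with both.

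The target of the compound, S1pr1, was high with SEW-2871 alone. It read 10.75, 9.68, 9.77 and 10.34 in control, 10.97, 11 and 10.83 with SEW-2871, 10.42, 9.99 and 10.47 after radiation, and 10.29, 10.05 and 10.03 with both. The SEW arrays lay above all others, with control replicate 1 next. SEW minus control was called (0.80, adjusted p = 0.0462), but the interaction of -0.97 ± 0.38 was not (95% confidence interval -1.77 to -0.17, adjusted p = 0.0961). It was called in the covariate fit (-1.22, adjusted p = 0.00629), with array weights (adjusted p = 0.0191) and without control replicate 1 (adjusted p = 0.0323).

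Among the other S1P receptors, S1pr3 was called above 0 (0.45 ± 0.14, adjusted p = 0.0388) and read 10.92 to 11.41 in control, 10.87 to 11.08 with SEW-2871, 11.11 to 11.20 after radiation and 11.28 to 11.38 with both. This call was lost in 18 of 26 alternatives, among them quantile normalization, median centring and 11 that left out an array. S1pr2 had 0.0013 ± 0.16 and S1pr4 -0.26 ± 0.23, and S1pr5 was below the filter. The S1P-making kinases Sphk1 and Sphk2 had -0.49 ± 0.25 and 0.23 ± 0.12, and the lyase Sgpl1 0.06 ± 0.14, none called. Another probe set gave 0.56 ± 0.14 for S1pr2, 0.67 ± 0.21 for Sphk2 and 0.28 ± 0.18 for S1pr3. For Sphk1 another gave 0.35 ± 0.22, of opposite sign. The values of these genes therefore depend on the probe set. In the whole list of 29 genes 4 (13.8%) were called above 0 and 1 (3.45%) below, near the shares of all genes (10.5% and 3.41%). Above 0 were the desaturase gene Degs1 (0.21), the S1P phosphatase genes Sgpp2 (0.69) and Sgpp1 (0.28), and S1pr3. The lipid phosphatase gene Plpp1 was called below 0 (-0.85 ± 0.17, adjusted p = 0.00448). Another probe set of Degs1 gave -0.44 and the mean of its probe sets -0.11, and 1 of 2 other probe sets of Sgpp1 gave -0.12, so the direction of these genes depends on the probe set. Without control replicate 4, 3 were above 0, and without radiation+SEW replicate 3, 1 was. After median centring none of the 4 was called above 0, while the call below 0 was made.

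Of 27 targets of p53, 3 were called above 0 (Plk2, Sesn1 and Ei24), a share near the 10.5% of all genes, and 1 below (all genes 3.41%), the death receptor Fas (-1.06 ± 0.24, adjusted p = 0.00733), which read 9.98, 10.23 and 10.06 with SEW-2871 and 9.30 to 9.40 with both. Plk2, a polo-like kinase, had SEW low as its single carrier (0.99 ± 0.24, adjusted p = 0.0106). Sesn1 had 0.52, but its other probe sets gave 0.16, 0.01 and -0.27. The call was lost in 10 of 26 alternatives for Ei24, in 3 for Sesn1 and in 1 for Plk2. Radiation raised 4 of the 27 without SEW-2871 (all genes 2.29%) and 11 with it (13.8%), and the list means of the 6 irradiated arrays lay within 9.71 to 9.89. Without control replicate 4, 4 were called above 0 and 1 below, while without SEW replicate 1 or with median centring 1 was called above and 1 below.

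Counts were small in the remaining lists, and for comparison 10.5% of all genes were called above 0 and 3.41% below. Called above 0 were 2 of 12 natural killer genes (the receptors Klra8 and Klrd1), 2 of 12 mesothelial genes (Gpm6a and Nkain4), 2 of 10 ciliated cell genes (Rsph1 and Cdhr3), and 1 each of the dendritic (Itgae), mast cell (Hdc), clock (Bhlhe40), alveolar type 2 (Lpcat1) and alveolar type 1 (Pdpn) lists. Called below 0 were 1 of 9 platelet genes (Clec1b, -1.42 ± 0.45) and 1 of 19 oxidative stress genes (Hmox1, -0.64 ± 0.20). None was called in the T cell, alveolar macrophage, eosinophil, erythroid, cell cycle, interferon or cardiac muscle lists. Hdc, which makes histamine, kept its call in all 26 alternatives, with 9.59 to 9.77 in the SEW arrays and 10.03 to 10.73 in the others (0.91 ± 0.17, adjusted p = 0.00295). Another probe set of Hdc gave only 0.33 ± 0.20. In the mast cell list of 4 genes, 2 lay above 0 and 2 below, with a median of -0.16. After median centring the natural killer, mesothelial, dendritic, alveolar type 1 and alveolar type 2 lists held no call. Without radiation replicate 1 or radiation+SEW replicate 3 the natural killer, dendritic, alveolar type 1, alveolar type 2, platelet and oxidative stress lists had none. The ciliated and clock lists had none without radiation+SEW replicate 3. Without SEW replicate 1 the dendritic, alveolar type 1, alveolar type 2, oxidative stress and clock lists had none. Without control replicate 4, the platelet and dendritic lists had none, the mesothelial and ciliated lists 1 each, and the clock list 2, while 1 alveolar macrophage gene was called below 0. The call was lost in 17 of 26 alternatives for Itgae, 16 for Nkain4, 13 for Cdhr3 and 12 each for Klrd1 and Hmox1. Clec1b lost its call in 11 of 25 alternatives.

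Whether the radiation response under SEW-2871 differed from that under the other 2 compounds was tested directly, at the same 0.1 mg/kg. FTY720 is fingolimod, a prodrug whose phosphate acts on several S1P receptors. Against it no gene was called by limma, with 1064 genes at an unadjusted p under 0.05, and the 95% interval of a difference reached, in the median gene, 0.31 to either side. Against fTyS, 367 genes (2.84%) were called, 310 above (2.4%) and 57 below 0 (0.441%), and 265 of them (72.2%, or 14.7% of the 1797) were also called in the interaction; both contrasts share the SEW and radiation+SEW arrays. None of the 30 genes with the largest interactions was called in either. The count against fTyS was 106 after median centring. It was 36 and 206 without radiation+SEW replicates 3 and 2, 115 and 142 without SEW replicates 1 and 3, 98 without radiation+fTyS replicate 1, and 134, 76 and 730 without fTyS replicates 1, 2 and 3.

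Radiation under FTY720 was called for 14.1% of all genes (9.13% higher, 4.99% lower) and under fTyS for 0.456% (0.332% higher, 0.124% lower). Prdm8 rose by 1.84 under SEW-2871 and by 1.70 under FTY720 (adjusted p = 0.000803), with 0.48 under fTyS; the difference between SEW-2871 and fTyS was 1.36 ± 0.37 (adjusted p = 0.0508). Stfa2l1 rose by 2.01 under FTY720 (adjusted p = 0.0122) and had 1.03 under SEW-2871 and 0.46 under fTyS. Igkv5-39 had -3.28 under SEW-2871, -2.81 under fTyS and 0.29 under FTY720, and the difference between SEW-2871 and FTY720 was -3.57 ± 0.91 (adjusted p = 0.289). Hspa1a had -1.49, -2.40 and -1.45 under SEW-2871, FTY720 and fTyS. Gp2 had 1.87 under SEW-2871, 0.48 under FTY720 and 1.89 under fTyS, and its difference between SEW-2871 and fTyS was -0.01 ± 0.65.

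**Figure D5:**
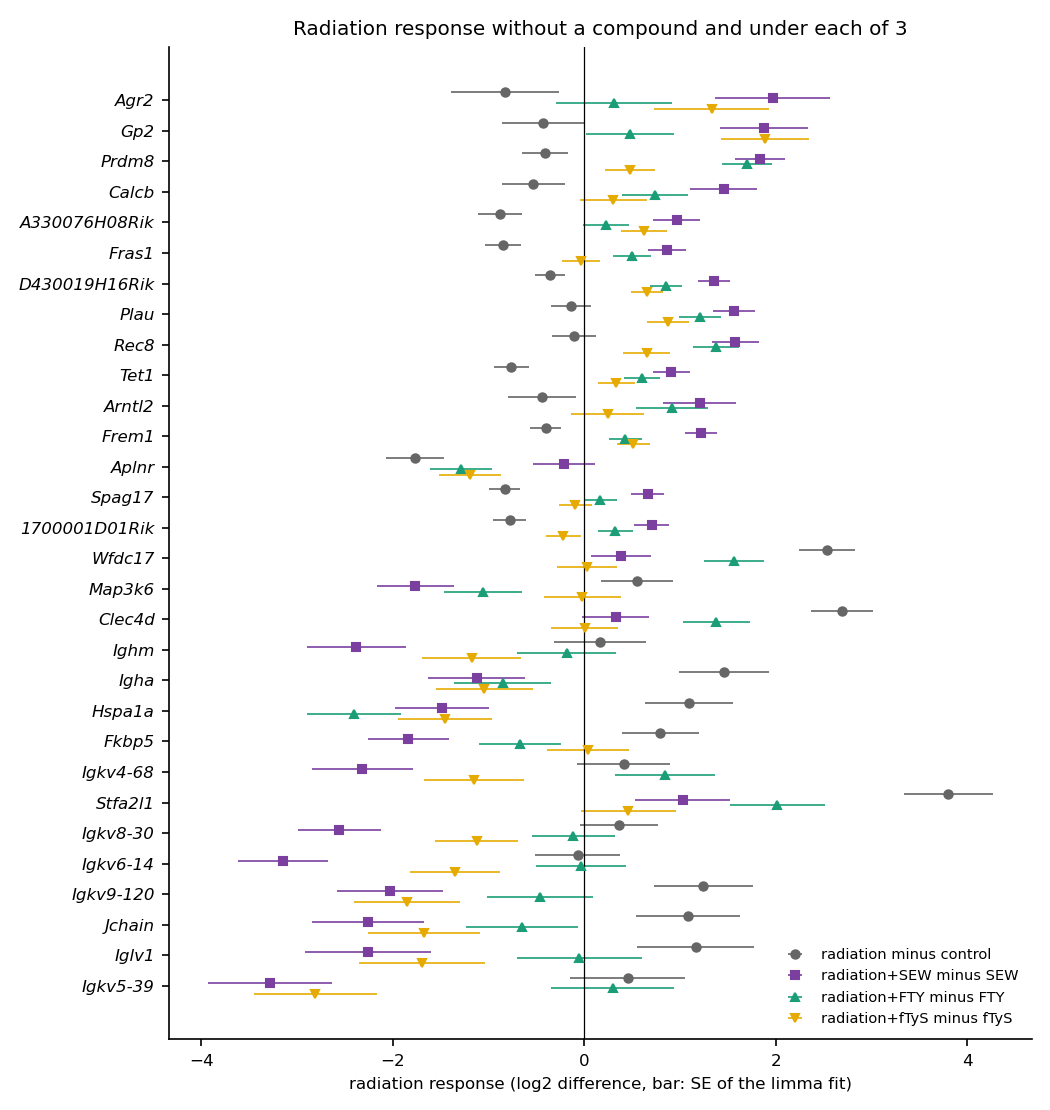
Radiation response of the 30 genes with the largest interactions (log2 difference, bars are the SE of the limma fit) without a compound (grey circles) and under SEW-2871 (purple squares), FTY720 (green triangles) and fTyS (yellow triangles). Grey circles and purple squares are far apart by choice of the genes; the other symbols were not used to choose them, and for Igkv5-39 FTY720 lies near 0 (0.29) while fTyS (-2.81) lies near SEW-2871 (-3.28).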

How the data were processed

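Lung RNA of 25 mice was hybridised to Affymetrix arrays, 1 array per mouse. The authors deposited 1 linear intensity (signal) for each of 45101 probe sets; the submitters' processing notes name GCOS, and the summary method, background correction and scaling are not given in the sources used here. Signals ran from 0.53 to 19112 and array medians from 118.33 to 129.58. Precision is set by the number of arrays; in the median gene the 95% interval of the interaction reached 0.30 to either side.

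Control probe sets (64) and probe sets with several symbols (932) or none (9160) in the platform annotation were left out. Each of 18193 genes kept its probe set of highest mean, and 12937 genes above the 40th percentile (6.49) were tested as log2(signal + 16). One limma fit (limma 3.58.1, R 4.3.3; eBayes with trend, 17 residual degrees of freedom) of 8 group means gave all contrasts, two-sided, with Benjamini-Hochberg adjustment over all genes; an adjusted p of at most 0.05 was called. The pipeline was tested on simulated data. Values after ± are SEs of this fit.

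Named genes are the 15 largest called interactions in each direction, up to 4 genes from each of 32 lists (called first, then by p) and genes of S1P receptors, kinases and lyase; Hspa1b, Dnajb1, Csf3r, S100a9 and S100a8 were added after their values were seen, and further list members are given where their list is described. Lists are described by counts and medians and have no test of their own. The genes, lists and tests were chosen with earlier results of these data known. Of 587 listed genes 475 were tested, 58 lay below the filter and 54 had no probe set.

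Alternatives were quantile normalization, median centring, pseudocounts of 1 and 64, no filter or one at the 60th percentile, averaging a gene's probe sets, no trend, array weights, the replicate number as a block, only the arrays compared, muscle and adipocyte means as covariates, and leaving out each array. One more, without control replicate 4 and with these covariates, was chosen after seeing the data.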

Additional observations from a re-analysis of the deposited data

Results flagged for a closer look

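The radiation response differed with and without SEW-2871 for 1797 genes, and between SEW-2871 and fTyS for 367 genes, each by the test of the difference itself in limma. Within the control group, single arrays stood apart for 3 of 87 genes and 5 of 32 lists by the gap to the nearest other array as a share of the group's range, set against Dixon's critical value; chance flags about 1 in 20 groups. Control replicate 4 was high for Ei24 (11.18 against 10.91 to 10.93; share 0.918), Stfa2l1 (7.23 against 6.08 to 6.20; 0.895), the p53 targets (9.83 against 9.23 to 9.33; 0.836) and the collagen and matrix genes (10.68 against 10.32 to 10.36; 0.873), and low for the erythroid genes (7.0 against 8.13 to 8.32; 0.854). Control replicate 2 was high for skeletal muscle genes (11.02 against 6.58 to 6.95; 0.916) and low for T cell genes (7.33 against 7.52 to 7.55; 0.881). Control replicate 1 was low for Rsph1 (9.87 against 10.16 to 10.20; 0.883). The part of these arrays in the results was not tested beyond the fits without them.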

How the results depend on the processing

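The count of 1797 interactions was 3366 with array weights and 888 to 2093 when an array was left out; the other alternatives kept it within 1.5 times. With the replicate number as a block it was 1781. Same-numbered arrays had residual correlations of -0.80 to 0.65, with 6 of 18 over 0.1; all 3 control and radiation pairs were over 0.1 (0.17 to 0.53), but in the other 5 combinations of groups they were not, so the numbers were not taken to pair the samples. Under the block Arntl2, Itgae, Kdr, Nkain4, S1pr3, Hspa1b and Dnajb1 were not called, and Csf3r was. Against FTY720 the count of 0 became 196 with array weights, 5 with covariates, 1 with only the arrays compared, 17 in the added alternative and 0 to 6 on leaving out an array. Against fTyS the 367 became 106 with median centring, 127 with probe sets averaged, 3558 when arrays were weighted, 709 with covariates, 110 with only the arrays compared, 813 in the added alternative and 36 to 730 on leaving out an array; the cause was not tested. The sign turned for the interaction of Degs1 with the mean of all probe sets (-0.11). For the interaction of S1pr2 it turned with quantile normalization (-0.0854), median centring (-0.0879), a pseudocount of 64 (-0.000365), the replicate block (-0.0103), covariates (-0.0365) and the added alternative (-0.0327), with -0.0688 to 0.128 on leaving out an array. For the interaction of Sgpl1 it turned with quantile normalization (-0.0104), median centring (-0.0242) and array weights (-0.0103). Of the 78 called genes named by rule or added, 37 kept their call in each alternative that tested them (24 to 26 alternatives), 36 lost it on leaving out some array and 32 in some other fit.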
